A study of Mus musculus with 9 samples.

Results

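miR-185-5p, miR-33-5p and miR-378a-3p are 3 microRNAs tied to the control of cholesterol and fat in liver. They were taken by their names on the array (mmu-miR-185-5p, mmu-miR-33-5p and mmu-miR-378a-3p, written below without the species prefix), 3 of the 1881 mouse miRNAs it reads, and were followed across livers of metformin-treated, high fat diet and chow-fed control mice. The labels give 3 arrays per group, each hybridised with liver RNA pooled from 4 male C57BL/6J mice aged 20 weeks, so that the spread between arrays is one between pools and not between single mice. The metformin group was fed for 17 weeks, from 3 weeks of age, on chow with 45% of kcal as fat and received metformin, a glucose-lowering drug, by stomach tube at 3 mg per kg per day for the last 5 weeks. The high fat diet group ate the same diet and received saline over the same 5 weeks. The control group ate normal chow for the 17 weeks, and no gavage is given for it in the sources used here.

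MicroRNAs are short RNAs that pair through bases near their 5′ end, the seed, with sites in messenger RNAs and lower the output of those messages. miR-33 is made from an intron of Srebf2, the gene of SREBP2, the transcription factor that switches on cholesterol synthesis and uptake, and it represses Abca1, the pump that loads cholesterol onto high density lipoprotein. miR-185 acts on the other side of the same system: it is known to target SREBP2 and the scavenger receptor SR-BI, which takes cholesterol from high density lipoprotein into hepatocytes. miR-378a is made from an intron of Ppargc1b, the gene of the coactivator PGC-1β, and has been tied to mitochondrial fuel use.

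The mature miR-33-5p and the opposite arms of the miR-33 and miR-185 hairpins, from RefSeq on GRCm38.p6, are shown because the results below turn on which strand of each hairpin gave a signal. Capitals mark the seed, bases 2 to 8.
miR-33-5p: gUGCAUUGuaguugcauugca
miR-33-3p: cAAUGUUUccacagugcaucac
miR-185-3p: aGGGGCUGgcuuuccucuggu
miR-33-5p lies at chr15:82198127-82198147 on the plus strand and miR-33-3p at chr15:82198167-82198188 on the same strand. In the RefSeq gene table Mir33 lies within the span of Srebf2. miR-185-3p lies at chr16:18327405-18327425 on the minus strand. No other mature mouse miRNA of the sequence table had the seed of miR-33-5p, so no second miRNA of the table carried those 7 letters. The miRNAs missing from that table could not be checked.

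miR-185-5p and miR-378a-3p gave a signal in every liver pool, and miR-33-5p in none. Each of the 3 miRNAs has 2 probes, each printed on 15 spots, and detection meant that the scanner software marked a fraction above 0.5 of a probe's spots as well above background. Its brighter probe detected miR-185-5p on 9 of 9 arrays, with 104 of 105 spots well above background. miR-378a-3p was detected on 9 of 9 arrays by both of its probes, with 106 of 106 spots well above background for the brighter one and 90 of 93 for the other. Before any scaling, the median spot of miR-185-5p lay between 16.2 and 42.5 intensity units on the 9 arrays and that of miR-378a-3p between 35.2 and 70.7. The negative control spots of the same arrays reached 5.49 to 10.1 at their 95th percentile, below both miRNAs on every array.

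miR-33-5p was not detected in any group, whichever way the spots were read. On its first probe 0 of 91 spots were well above background, and on its second 3 of 95. In order of replicate number, the median spot of the first probe read 0.95, 0.66 and 1.71 intensity units for metformin, against -1.13, 0.31 and 0.25 for the high fat diet and 1.19, -0.05 and 1.65 for controls. These values sit around 0, below the median negative control spot of 2.13 to 3.36 units. The second probe read 4.44, 5.55 and 4.60 units for metformin, 4.16, 3.96 and 4.85 for the high fat diet and 2.62, 3.84 and 3.46 for controls. Every one of these lay above the median negative control spot of its array and below the 95th percentile of those spots, so the second probe too read within the range of probes that match no miRNA. The dimmest probe counted as detected on the same arrays read 9.35 to 15.1 units, which sets how bright miR-33-5p would have had to be for a level to be read. No fold change was computed for it between any groups, and the arrays do not show whether the diet or metformin moved it below this limit. The scanner software's own call gave miR-33-5p on 0 of 9 arrays as well.

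**Figure D1:**
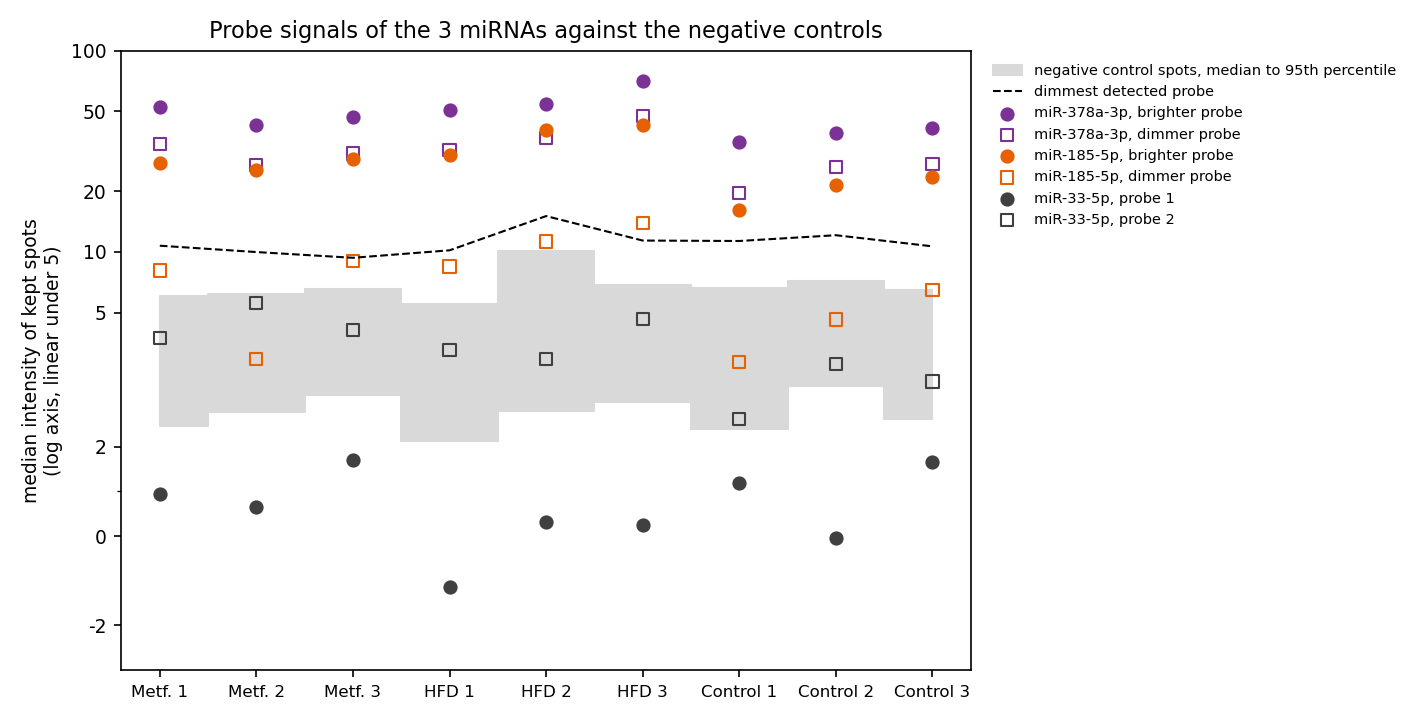
Median intensity of the kept spots of both probes of each miRNA on the 9 arrays (Metf., metformin with high fat diet; HFD, high fat diet; Control, chow), on an axis that is logarithmic above 5 and linear below; the grey band runs from the median to the 95th percentile of the negative control spots and the dashed line is the dimmest probe counted as detected. Both probes of miR-378a-3p and the brighter probe of miR-185-5p lie above the dashed line on every array, and both probes of miR-33-5p lie below it on every array.

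The opposite arms differed between the hairpins. miR-33-3p, which shares its hairpin with miR-33-5p, was detected on 0 arrays by any of its 4 probes, so neither strand of the Srebf2 intron miRNA was measured. miR-185-3p was detected on 0 arrays, and only the 5p strand of that hairpin gave a signal. miR-378a-5p was detected on 8 of 9 arrays, all but 1 control array.

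Before any comparison, the arrays themselves set apart some of these values. On 6 of the 9 arrays there were edge strips, runs of columns where 10% or more of the spots of bright probes lay under 50% of their probe's level, and these took 0%, 31.1% and 0% of the spots for metformin, 53.6%, 0% and 33.6% for the high fat diet and 43.8%, 43.5% and 41.1% for controls. All control arrays thus had strips, while a single metformin array did. Inside these strips 10 of 30 miR-185-5p spots were well above background and their median intensity was 4.60, against 59 of 60 spots and 24.1 in the kept columns of the same 6 arrays. For miR-378a-3p the strips held 29 spots with a median of 5.79, of which 10 were well above background, against 61 of 61 spots and a median of 42.7 in the kept columns. The loss was uneven: on the third control array the miR-378a-3p spots in the strips had a median of 34.3, against 41.1 in its kept columns. The values below leave the strips out unless all spots are named. A level is the median of a probe's kept spots on the log2 scale, relative to the 75th percentile of that array over 187 probes detected on all 9 arrays, from the probe that was brighter on average over all arrays. The reading of all spots puts the strips back and takes the mean of a probe's spots without the software's non-uniformity or outlier marks. Its percentile is over 124 probes, so these readings differ in more than the strips.

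**Figure D2:**
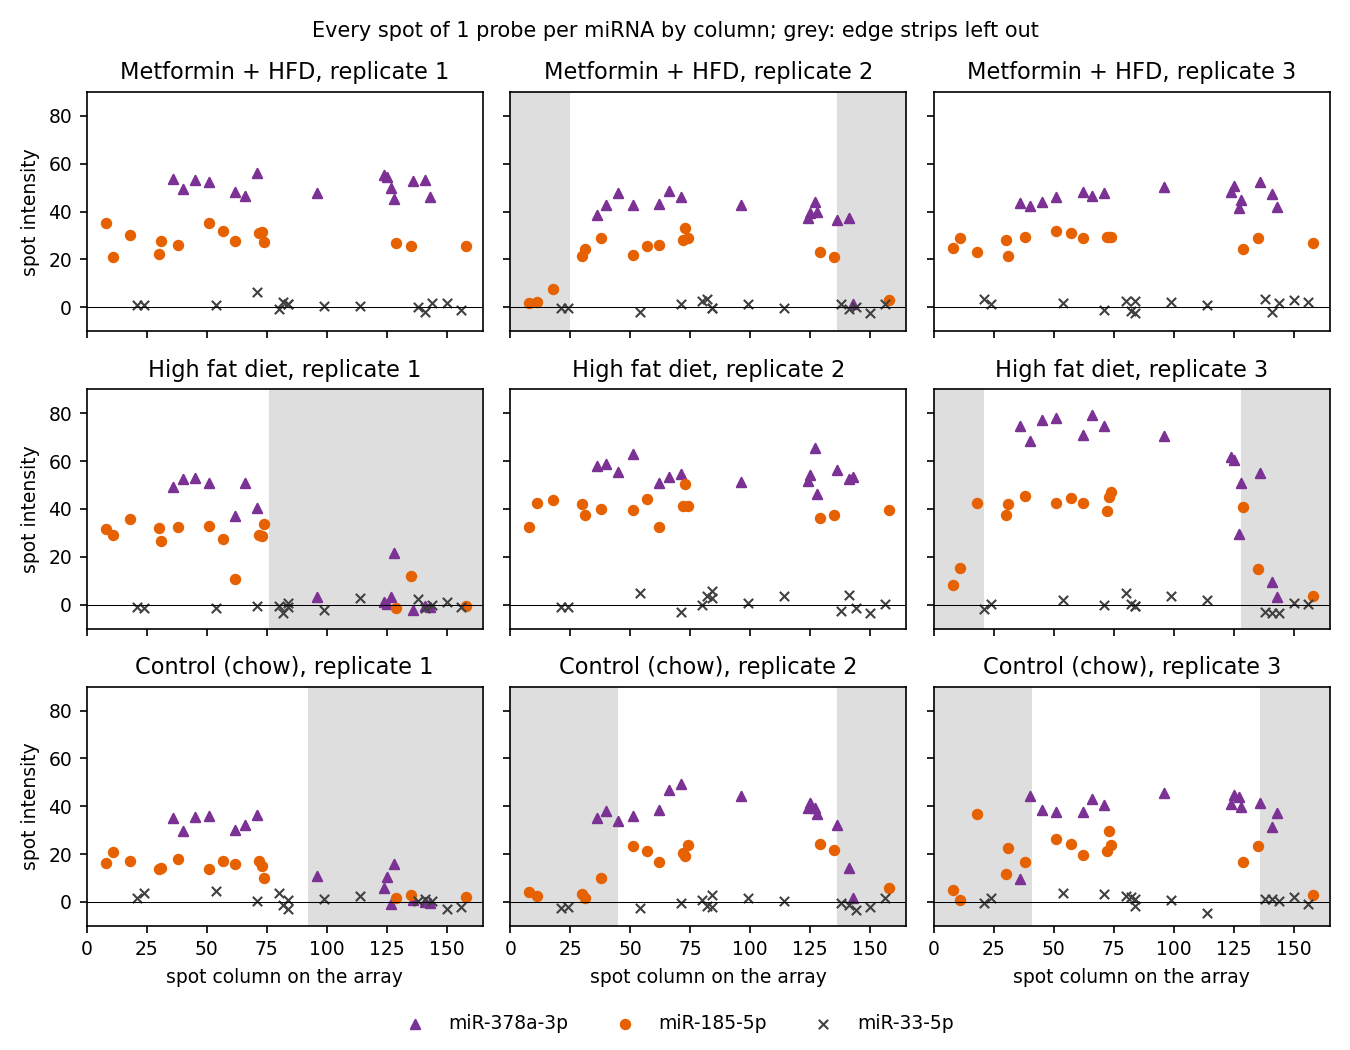
Spot intensity (units before scaling) of the brighter probe of miR-378a-3p and miR-185-5p and of the first probe of miR-33-5p, by spot column, on each of the 9 arrays; the columns in grey were left out. Many spots of miR-378a-3p and miR-185-5p inside the grey columns are near 0 while others keep the level of the kept columns, and those of miR-33-5p lie near 0 everywhere; 1 spot of miR-185-5p above 90 units is outside the axis.

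miR-185-5p rose on the high fat diet. Its level was -2.87, -2.80 and -2.93 on the high fat diet arrays, against -3.57, -3.37 and -3.25 on the control arrays. The 3 diet arrays lay above all control arrays, and the controls were the more scattered. In this comparison 37.1% of the tested miRNAs did not overlap, 21.7% with the diet arrays higher. High fat diet livers were 1.45-fold higher than control livers (95% confidence interval 1.24 to 1.69; log2 difference 0.53, SE 0.10, n = 3 each), with an adjusted p of 0.00827 in limma's model across 143 tested miRNAs. In this comparison 20 miRNAs passed, 14% of those tested, and 6 of these were higher, 4.2%. The difference of miR-185-5p was the second most positive of the 143, while the median over all tested miRNAs was 0.03. The median over the kept spots before scaling went the same way, at 30.2, 40.2 and 42.5 intensity units on the high fat diet arrays against 16.2, 21.4 and 23.6 on the control arrays. The scaling percentile itself was 221, 279 and 323 units on the diet arrays against 193, 221 and 225 on the control arrays, so unscaled values also carry array brightness.

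The call of miR-185-5p depended on how the arrays were read. With all spots the levels were -3.16, -3.49 and -3.60 for the high fat diet, against -3.84, -3.84 and -3.82 for controls, again without overlap, as for 23% of tested miRNAs in that reading. The log2 difference was then 0.42 (SE 0.16) with an adjusted p of 0.146 in limma, while the median of all tested miRNAs was -0.22 and 6.47% of 139 passed. With only those columns that were kept on all 9 arrays, where every array contributes the same spots, it was 0.64 with an adjusted p of 0.0141 in limma. In that setting 20 of 99 tested miRNAs passed, 17 of them higher, and the median of all tested was 0.17. For want of spots 2036 probes were dropped there. The slides hold their arrays in rows, with every high fat diet array in one row and the control arrays in another row or on another slide, so that row and diet are linked only through the metformin arrays. With the row as a block the log2 difference was 0.68 and limma's adjusted p 0.0814. That fit used the 8 arrays of 1 slide and so left out the third control array. In the row of the diet arrays the first metformin array was the only array of another group. The call also ended with the 75th percentile taken over all probes (1.07, limma adjusted p = 0.0576), with the deposited table (0.71, limma adjusted p = 0.0541) and after normexp background correction, which left a difference of 0.0008 (limma adjusted p = 0.997). That correction added an offset of 50 units to every spot, against median spots of miR-185-5p of 16.2 to 42.5 units without it. Without the second high fat diet array, the one without strips, the difference was 0.50 with a limma adjusted p of 0.0560.

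The second probe of miR-185-5p was too dim for a level on most arrays. It was detected on 1 of 9 arrays, the third high fat diet array, so it has no fold change. Its median spot stood at 3.83%, 4.04% and 4.30% of the scaling percentile on the high fat diet arrays, against 2.01%, 2.19% and 2.88% on the control arrays. On the metformin arrays it stood at 3.21%, 1.71% and 3.81%. On the control arrays 0% of its spots were well above background, so these values are given as signals near background and no order is read from them. Where the probes detected on any array were averaged, miR-185-5p differed by 0.28 between high fat diet and control livers, with a limma adjusted p of 0.0373. In that average the second probe stood at the floor of -4.62 on every array but the third high fat diet array (-4.54). The value thus follows the brighter probe and is no separate measurement.

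miR-185-5p in metformin livers lay between the other groups. Its level was -3.19, -3.18 and -3.03 on the metformin arrays, against -2.87, -2.80 and -2.93 on the high fat diet arrays. All 3 metformin arrays lay below every high fat diet array and above every control array. The log2 difference between metformin and high fat diet livers was -0.27 (SE 0.10, 95% confidence interval -0.50 to -0.04), and limma's adjusted p over 143 miRNAs was 0.374. In that comparison 2 miRNAs passed, 1.4% of those tested, and the arrays of the groups did not overlap for 29, or 20.3%. Between metformin and control livers the log2 difference was 0.26 (SE 0.10, 95% confidence interval 0.04 to 0.49) with an adjusted p of 0.189, where again 1.4% of miRNAs passed and 25.9% did not overlap. Neither difference passed, and the order high fat diet, metformin, control held without overlap while only the outer groups of that order differed past the threshold. An exact permutation test of the group means gave p = 0.1 for each of the 3 pairs, the smallest that 3 arrays against 3 allow.

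The order was the same with all spots, on a narrower scale. The metformin levels were then -3.64, -3.79 and -3.63. No groups overlapped, as for 22.3% of tested miRNAs between metformin and high fat diet livers and 21.6% between metformin and control livers, but the lowest diet array and the highest metformin array lay close together. The log2 difference was -0.27 (adjusted p = 0.494 in limma) between metformin and high fat diet livers and 0.15 (adjusted p = 0.741 in limma) between metformin and control livers. Within the row of the slide that held the first metformin array and all high fat diet arrays, metformin minus high fat diet was -0.32 with the strips left out and -0.23 with all spots. Within the row that held a pair of metformin arrays and a pair of control arrays, metformin minus control was 0.36 with the strips left out and 0.13 with all spots.

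**Figure D3:**
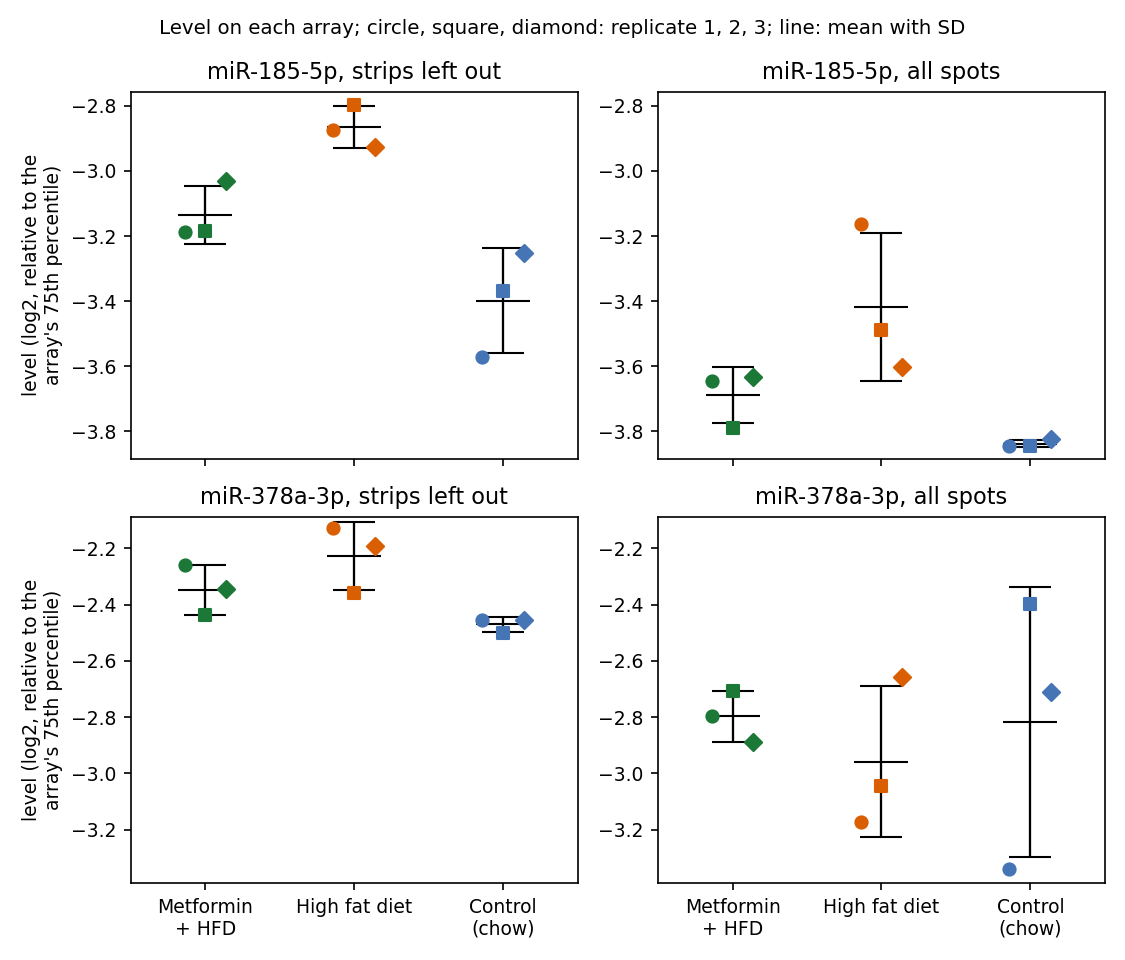
Level of miR-185-5p (top) and miR-378a-3p (bottom) on each array, log2 relative to the array's 75th percentile, with the strips left out (left) and with all spots (right); points are arrays and lines are the mean with its SD (n = 3). The groups of miR-185-5p are separate in both readings, while those of miR-378a-3p are close with the strips left out and overlap widely with all spots.

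miR-378a-3p showed a smaller difference that did not pass. Its level was -2.13, -2.36 and -2.19 on the high fat diet arrays, against -2.45, -2.50 and -2.45 on the control arrays. The diet arrays lay above all controls, which lay close together. Groups that do not overlap were common in this comparison, at 37.1% of the tested miRNAs, or 21.7% with the diet arrays higher. High fat diet livers were 1.18-fold higher (95% confidence interval 1.03 to 1.36; log2 difference 0.24, SE 0.09), with an adjusted p of 0.102 in limma, and 26th of the 143 from the most positive. The second probe read 0.31 on the same log2 scale. Its levels were -2.79, -2.92 and -2.77 for the high fat diet, against -3.30, -3.06 and -3.04 for controls, so both probes placed the diet arrays higher.

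In metformin livers miR-378a-3p was at -2.26, -2.44 and -2.34, a range that overlapped the high fat diet arrays and lay just above the control arrays. The log2 difference was -0.12 between metformin and high fat diet livers (SE 0.09, 95% confidence interval -0.32 to 0.08, limma adjusted p = 0.632). Between metformin and control livers it was 0.12 (SE 0.09, 95% confidence interval -0.08 to 0.33, limma adjusted p = 0.477). These intervals leave room for differences in either direction.

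The direction of miR-378a-3p was not kept with all spots. Its levels were then -2.80, -2.71 and -2.89 for metformin, -3.17, -3.05 and -2.66 for the high fat diet and -3.34, -2.40 and -2.71 for controls. The control arrays alone then spanned the range of the other groups. The log2 difference between high fat diet and control livers was -0.14 (adjusted p = 0.765 in limma) with the brighter probe and 0.19 with the other, which was then detected on 7 of 9 arrays. With only the columns kept on all 9 arrays the brighter probe differed by 0.40 and passed (adjusted p = 0.0394 in limma). In that setting the median of all 99 tested miRNAs was itself 0.17, and 20 passed, 17 of them higher. The direction between metformin and high fat diet livers also turned with all spots, to 0.16.

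**Figure D4:**
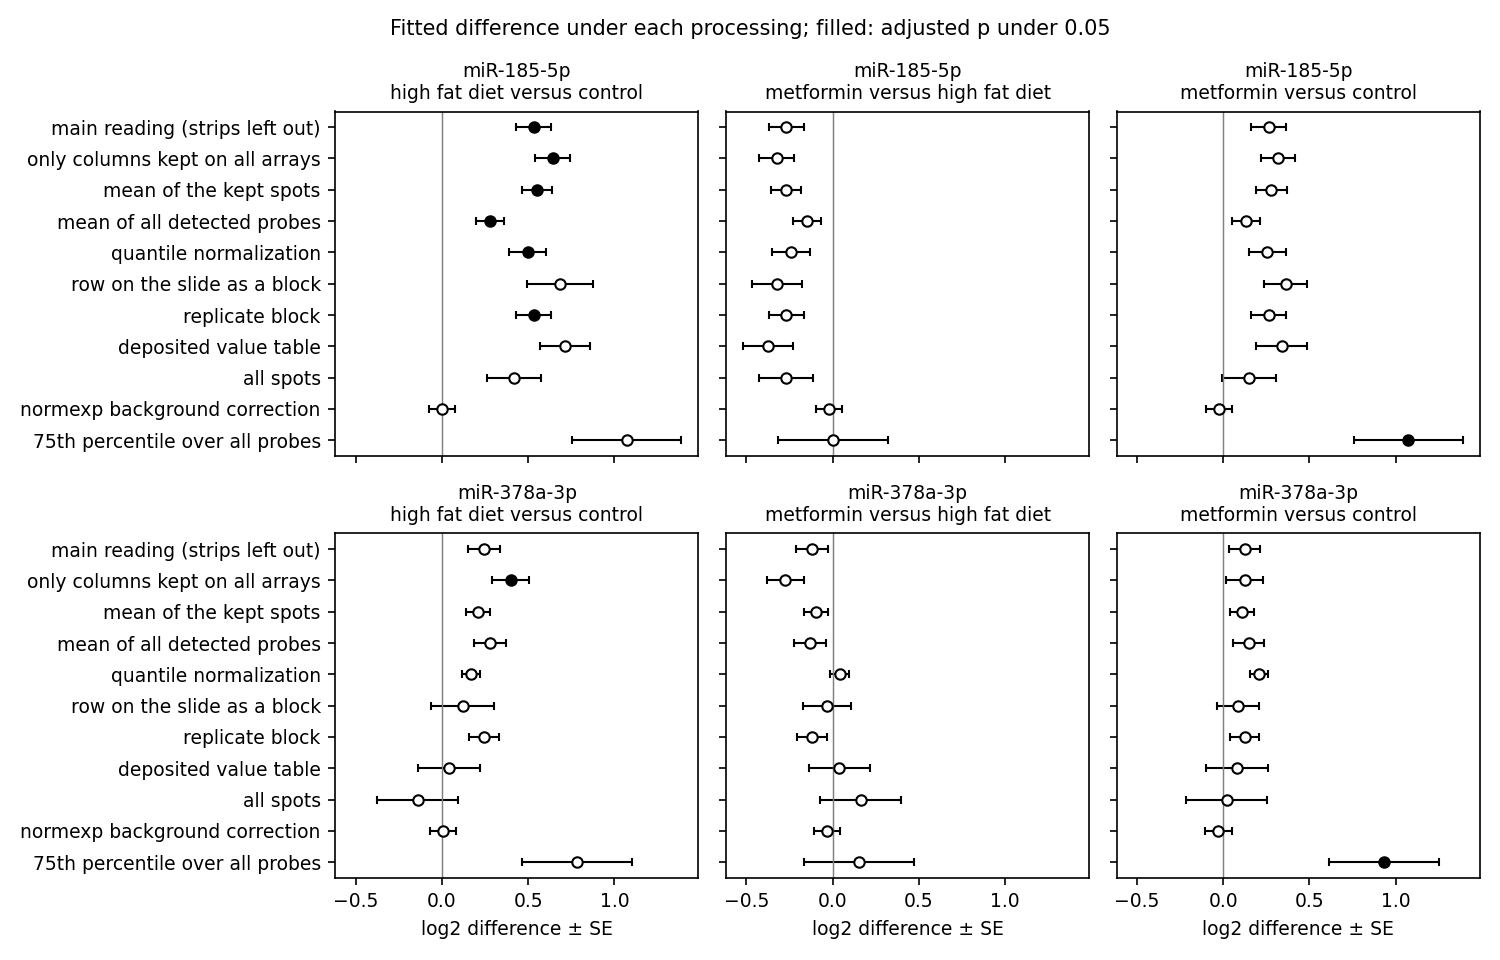
Log2 difference (with SE) of miR-185-5p (top) and miR-378a-3p (bottom) in the 3 comparisons under 11 ways of processing the same arrays; filled points had an adjusted p under 0.05. miR-185-5p was higher in high fat diet than in control livers under each way shown, by 0.0008 after the normexp correction to 1.07 with the percentile over all probes, while miR-378a-3p lay on both sides of 0. The row block left out the third control array.

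The relatives of miR-378a by name gave values close to it. The other arm, miR-378a-5p, was 0.34 higher on the log2 scale in high fat diet than in control livers (adjusted p = 0.127 in limma), with control levels of -4.44, -4.13 and -4.02 near the floor of -4.62. miR-378b, detected on 9 of 9 arrays, was 0.21 higher (adjusted p = 0.104 in limma). miR-378d, detected on 9 of 9 arrays, was 0.39 higher with its brighter probe (adjusted p = 0.0587 in limma) and 0.29 with the other. miR-378c was detected on 0 arrays. None of these passed, and miR-378a-3p, miR-378b and miR-378d were positive in a comparison where 54.5% of all tested miRNAs were. The last of the 4 detected names of the family, miR-378a-5p, was positive too. It was tested only through the metformin and high fat diet groups, with 2 of 3 control arrays detecting it. On the remaining control array 0 of 8 kept spots were well above background, so its sign is not counted. miR-378a-3p, miR-378b and miR-378d are close in sequence, so signal on one probe can come from another of them, and these values are not independent. With all spots miR-378a-5p, miR-378b and miR-378d were at 0.19, 0.26 and 0.42 between high fat diet and control livers and none passed. Between metformin and high fat diet livers the same 4 names lay between -0.13 and -0.10. With all spots 3 of them turned positive there, miR-378a-3p at 0.16, miR-378a-5p at 0.07 and miR-378b at 0.02, while miR-378d was at -0.12.

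Across the 9 arrays, the tested miRNAs most like miR-185-5p were miR-1839-5p (Pearson r = 0.946), let-7i-5p (0.915), miR-27b-3p (0.915), miR-152-3p (0.899) and miR-29a-3p (0.896), out of 142 others. Of these 5, miR-1839-5p also passed between high fat diet and control livers, at 0.39 (adjusted p = 0.0397 in limma), but not with all spots (-0.09, adjusted p = 0.828 in limma). The least like it was miR-3077-5p (r = -0.935), which fell by 0.58 on the log2 scale (adjusted p = 0.0150 in limma), against -0.41 with all spots (adjusted p = 0.257 in limma). miR-378a-3p stood at r = 0.695 to miR-185-5p, 32nd of the 142. For miR-378a-3p itself the highest were miR-125b-5p (0.858), miR-199a-3p (0.796), miR-34a-5p (0.789), miR-378b (0.788) and miR-152-3p (0.782), and the lowest was miR-1249-3p (-0.895). These coefficients are over the 9 arrays of all groups together, which share scaling and group differences, and are given as a description.

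The wider list of miRNAs with known roles in cholesterol and fat held 32 names on the array, of which 19 could be tested. The list was chosen with earlier results of these data known, so its counts are given as a description. In high fat diet against control livers 2 of the 19 rose and 0 fell, where 14% of all tested miRNAs passed and 4.2% were higher. The members that rose were miR-185-5p and miR-34a-5p, which p53 induces and which lowers Sirt1. miR-34a-5p was at -0.27, -0.48 and -0.91 on the high fat diet arrays against -1.84, -1.91 and -2.02 on the control arrays, a log2 difference of 1.37 (SE 0.14, adjusted p = 0.000265 in limma), and of 0.84 with all spots (adjusted p = 0.0464 in limma). Among the 19, 17 were above 0, where 54.5% of all tested were, with a median of 0.17 against 0.03 for all 143. With all spots 1 of the 19 passed, against 6.47% of all tested, and 4 were above 0, where 26.6% of all tested were, with a median of -0.14 against -0.22, so the common positive shift was not kept in that reading.

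By role, miRNAs directed at Abca1 gave 6 tested of 13 and 0 called, where 14% of all tested miRNAs passed and 4.2% were higher. Among these 6, miR-148a-3p was at 0.37 (adjusted p = 0.0624 in limma). Those directed at SR-BI gave 4 tested of 5, of which miR-185-5p was called. miR-24-3p of that group was at 0.17 and miR-125a-5p at -0.17. The third role, miRNAs encoded in or acting on the SREBP and PGC-1β genes, gave 3 tested of 8, namely miR-185-5p and both arms of miR-378a. miR-96-5p, miR-182-5p and miR-183-5p, a cluster that SREBP2 switches on, were detected on 0 arrays. Of the other hepatic lipid regulators 7 of 9 were tested, and miR-34a-5p was called. miR-122-5p, the main hepatocyte miRNA and itself a regulator of cholesterol synthesis, was at -0.10 (adjusted p = 0.422 in limma) and -0.58 with all spots (adjusted p = 0.0682 in limma), and did not pass. With all spots 0 of the 6 Abca1-directed, 0 of the 4 SR-BI-directed and 0 of the 3 SREBP and PGC-1β miRNAs passed. In that reading 6.47% of all tested miRNAs passed. Of the 6 Abca1-directed miRNAs 1 was then above 0, where 26.6% of all tested were.

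Between metformin and high fat diet livers 0 of the 19 passed, with 5 above 0 (37.1% of all tested were) and a median of -0.08 against -0.06 for all tested miRNAs. In that comparison 13 of all 143 miRNAs had an unadjusted p under 0.05. miR-34a-5p was at -0.56 (adjusted p = 0.126 in limma) and miR-27a-3p at -0.29. With all spots the direction turned, with 16 of the 19 above 0, as 81.3% of all tested miRNAs were, and a median of 0.16 for both; miR-34a-5p was then at -0.21 and miR-27a-3p at 0.18. Between metformin and control livers 1 of the 19 passed, where 1.4% of all tested did: miR-34a-5p at 0.80 (adjusted p = 0.0143 in limma), with 15 above 0 (49.7% of all tested were) and a median of 0.11 against -0.00. With all spots that call was lost (0.63, adjusted p = 0.203 in limma), and 13 of the 19 were above 0, where 53.2% of all tested were. The 3 comparisons share arrays, so their values are not independent of each other.

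**Figure D5:**
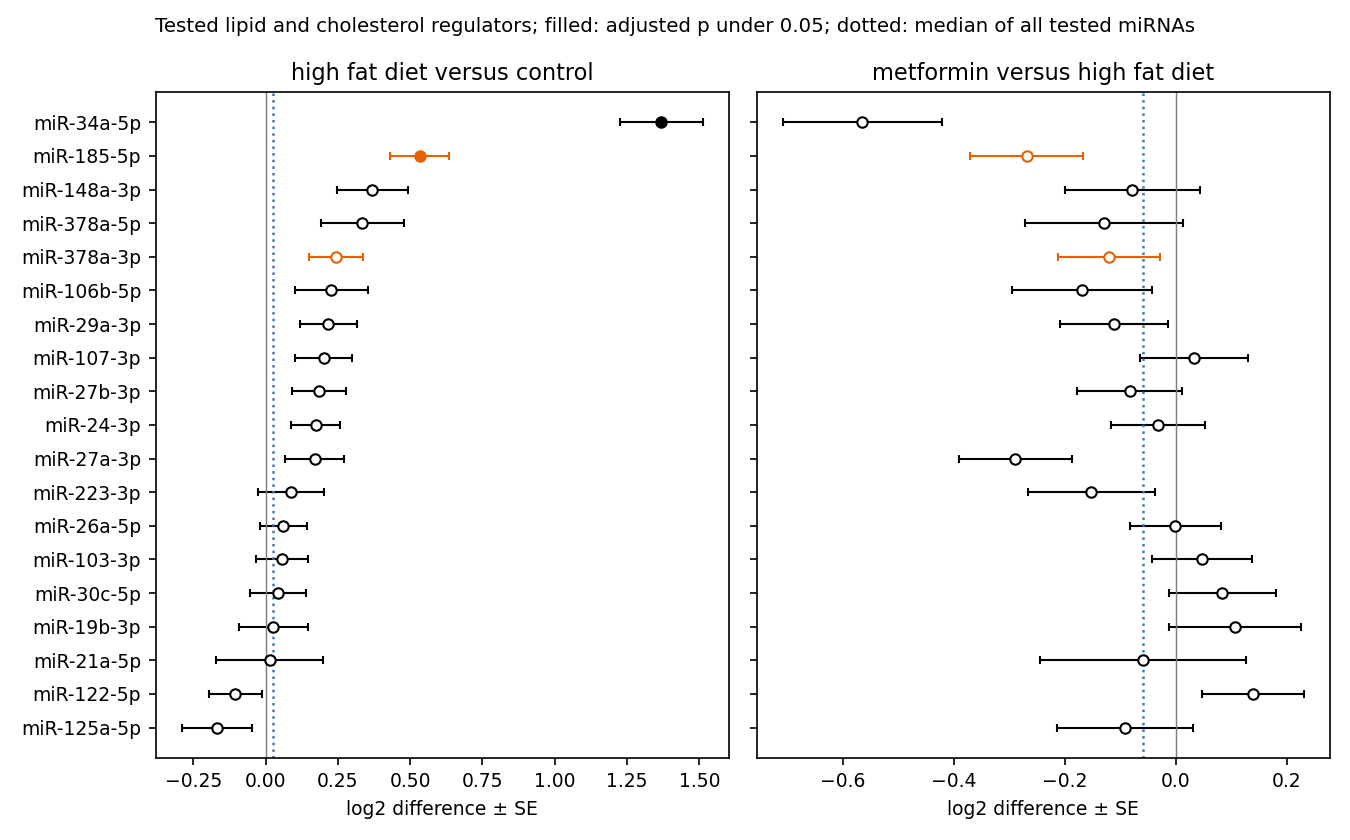
Log2 difference (with SE) of the 19 tested lipid and cholesterol miRNAs between high fat diet and control livers (left) and between metformin and high fat diet livers (right); filled points passed, the listed miR-185-5p and miR-378a-3p are in orange and the dotted line is the median of all 143 tested miRNAs. On the left miR-34a-5p (1.37) and miR-185-5p (0.53) are filled, and on the right none is.

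Bulk liver RNA holds several cell types, and fewer cells of a type cannot be told apart from less RNA per cell. The 4 hepatocyte markers summed to 107 to 120 times the scaling percentile for metformin, 98.0 to 110 for the high fat diet and 104 to 117 for controls, and overlapped. That sum is mostly miR-122-5p, at -0.10 between high fat diet and control livers. The other markers went the other way there, miR-192-5p at 0.08, miR-194-5p at 0.22 and miR-148a-3p at 0.37, and none of the 4 passed. The summed stellate and mesenchymal markers had the same order as miR-185-5p, at 0.274 to 0.288 for metformin, 0.299 to 0.319 for the high fat diet and 0.246 to 0.258 for controls. That sum rests on 2 of 5 markers, miR-199a-3p and miR-199a-5p, while miR-214-3p, miR-143-3p and miR-145a-5p were detected on 0 arrays. miR-199a-3p was 0.31 higher in high fat diet than in control livers (adjusted p = 0.0301 in limma), and 0.57 higher with all spots without passing (adjusted p = 0.158 in limma). With all spots the stellate and mesenchymal sums overlapped between groups, at 0.161 to 0.201 for metformin, 0.186 to 0.224 for the high fat diet and 0.122 to 0.191 for controls. The hepatocyte sums with all spots were 81.4 to 89.5 for metformin, 57.9 to 76.5 for the high fat diet and 86.8 to 107 for controls, lowest on the diet arrays. The median difference of the 4 markers between high fat diet and control livers was then -0.16, against -0.22 for all tested miRNAs. The endothelial marker miR-126a-3p ranged over 2.69 to 3.28 for metformin, 3.13 to 3.19 for the high fat diet and 2.62 to 2.93 for controls. With all spots it ranged over 1.91 to 2.26, 0.90 to 2.38 and 1.40 to 3.10 in the same order of groups. Its log2 difference between high fat diet and control livers was 0.18, and -0.42 with all spots. The 3 tested of 6 leukocyte markers summed to 0.304 to 0.332, 0.332 to 0.399 and 0.308 to 0.392 in the same order of groups, and erythroid miR-451a lay at 0.260 to 0.303, 0.504 to 0.695 and 0.337 to 0.915, with miR-144-3p at 0 arrays. With all spots the leukocyte sums were 0.217 to 0.228 for metformin, 0.192 to 0.254 for the high fat diet and 0.217 to 0.301 for controls. The median difference of these markers between high fat diet and control livers was 0.09, and -0.32 with all spots. miR-451a with all spots lay at 0.196 to 0.219, 0.301 to 0.434 and 0.248 to 0.698 in that order of groups. No muscle marker could be tested. The part of these cell types in the difference of miR-185-5p was not tested.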

How the data were processed

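Per the file headers, the 9 one-colour Agilent scanner files hold the intensity of 56430 spots per array, background-subtracted by Feature Extraction 11.5.1.1 without scaling; the submitters' processing notes name version 10.7. The deposited table, in log2, holds the software's total signal shifted by 1 constant for each array (-2.35 to -0.71; 0 to 6 of 1902 values per array departed by over 0.001), whose origin the sources used here do not give.

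Strips were traced from both edges, 4 columns at a time, for as long as 10% or more of the bright spots (80th percentile of a probe over 100) lay under 50% of their probe's level. Probes were medians of at least 3 spots without non-uniformity marks (425 dropped), floored at the 1st percentile of detected values. Tests covered the miRNAs that some group detected on each of its 3 arrays and used limma 3.58.1 (R 4.3.3), a model of 3 group means over 9 arrays, two-sided, with Benjamini-Hochberg adjustment at 0.05. The script was tested on simulated data. The number of arrays limits the precision: the median SE was 0.12, and 0.20 with all spots. 0 pairs of arrays were identical.

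Named were the members, their opposite arms and relatives, list members that passed, miR-34a-5p, miR-122-5p, markers that moved with a member, and the 5 most and 1 least correlated miRNAs. miR-148a-3p, miR-24-3p, miR-125a-5p and miR-27a-3p were named after their values were seen. The members and lists were chosen with earlier results of these data known. The headers name an older mouse build than the sequence table.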

Additional observations from a re-analysis of the deposited data

How the results depend on the processing

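Of 138 values of miR-185-5p and miR-378a-3p (23 distinct alternatives for each of 6 results; leaving out the other slide is leaving out the third control array), 121 kept their direction and their side of the threshold. The detection filter, the replicate block and leaving out an array of a group outside the comparison can change only the p of a difference. Such values kept their direction by design. Between high fat diet and control livers miR-185-5p was positive in all 23 (0.0008 to 1.07) and passed in 17, counting those at an unchanged 0.53. It did not pass with all spots (0.42), normexp (0.0008), the 75th percentile over all probes (1.07), the deposited table (0.71) or the row as a block (0.68). The row block was fitted without the third control array, the array on the other slide. The normexp correction was run on the median spot signal, chosen after seeing the data, with an offset of 50 added. Leaving out 1 array each gave 0.45 to 0.61 for miR-185-5p, and dropping the second high fat diet array ended the call (0.50). miR-378a-3p there turned to -0.14 with all spots and passed with the columns kept on all arrays (0.40), with 0.19 to 0.31 on leaving out arrays. Between metformin and high fat diet livers miR-185-5p turned to 0.0034 with the percentile over all probes (leaving out arrays, -0.32 to -0.23), and miR-378a-3p to 0.16 with all spots, 0.0397 with quantile normalization, 0.15 with the percentile over all probes and 0.0390 with the deposited table (leaving out arrays, -0.19 to -0.07). Between metformin and control livers normexp turned miR-185-5p to -0.0228 and miR-378a-3p to -0.0281, and the percentile over all probes made both pass (1.07 and 0.93); leaving out arrays gave 0.18 to 0.34 and 0.08 to 0.17. That percentile lies at 0.63 to 1.60 intensity units, near background, and moved the median of all tested miRNAs to 0.56, 0.21 and 0.80 for high fat diet against control, metformin against high fat diet and metformin against control. miR-33-5p was detected on 0 arrays with all spots and by the software. The cause of the changes between settings was not tested.

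The count called between high fat diet and control livers (20; 6 higher) was 9 with all spots (1 higher), 1 with the percentile over all probes, 0 with the deposited table (20 had an unadjusted p below 0.05) and with the row as a block (30), 39 without the array on the other slide, and 4 to 39 on leaving out arrays: 6 on dropping the first high fat diet array and 4 on dropping the second, 11 without the first control array and 13 without the second metformin array. With common columns it was 20, of which 17 were higher, and normexp gave 2 higher and 21 lower. Between metformin and high fat diet livers the count (2) was 0 with all spots (15 had an unadjusted p below 0.05), common columns, a strip threshold of 20%, normexp, quantile normalization, the percentile over all probes, no filter, the mean of all detected probes, the deposited table and the row as a block, and 1 without the other slide; leaving out arrays gave 0 to 3. Between metformin and control livers the count (2) was 0 with all spots, common columns, normexp and the deposited table, 98 with the percentile over all probes, 1 without a filter, 7 without the other slide and 5 with the row as a block, and 1 to 7 on leaving out arrays.

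Arrays of the same replicate number did not deviate together throughout (correlations of -0.24 to 0.43 over the 3 comparisons). With 3 arrays per group these values cannot decide whether arrays of 1 number shared a step, and the labels give only the number. With the replicate number as a block 22, 0 and 3 miRNAs passed for high fat diet against control, metformin against high fat diet and metformin against control, and miR-185-5p was at 0.53 (limma adjusted p = 0.0124) between high fat diet and control livers.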
